A study of Mus musculus with 2 samples.

Results

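The 8 genes of the synaptonemal complex centre, meiotic crossover and repair, and germ cell bridges (Sycp1, Syce1, Syce2, Syce3, Tex12, Tex11, Tex14 and Tex15) were taken by name, and every row of the authors' deposited table that carried one of these symbols was kept. They are 8 of 21896 protein-coding genes in the reference. Homologous chromosomes are held together in early meiosis by the synaptonemal complex, a ladder whose rungs are the transverse filament protein SYCP1 and whose centre is stacked from the SYCE1, SYCE2, SYCE3 and TEX12 proteins. TEX11 is an X-linked protein that acts at crossover sites within the complex, TEX14 keeps open the intercellular bridges that join sister germ cells of a cyst, and TEX15 is needed for repair of meiotic double-strand breaks and for piRNA-directed silencing of transposons. In the mouse ovary, oocytes pass through meiotic prophase in fetal life and cysts break down into primordial follicles around birth.

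The series compared RNA that came down with an antibody against ELAVL2, a member of the ELAVL (Hu) proteins that bind RNA, with the input RNA of the same kind of lysate (RIP-seq). Both samples came from ovaries of P0 mice, 100 of which were homogenised, so each sample pools many animals. The RIP arm and the input arm, which had no antibody step, held 1 sample each. No genotype or strain was given, and no pulldown with a control antibody was among the samples analysed here.

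A peak is a stretch of genome where RIP tags piled up above input, as the authors called it. Its pileup is the number of RIP tags overlapping its summit, its input level is the number of input tags expected there after scaling to the smaller RIP library, and its fold enrichment is the pileup plus 1 over the input level plus 1. One input tag equals a level of 0.708. Pileup, fold and -log10 q are the authors' values. The RIP rested on 13787676 tags and the input on 19479946 after tags at 1 position and strand were reduced to 1. With 1 sample per arm there is no replicate check, and the intervals below are exact Poisson 95% intervals on the pileup alone, which cover counting error only. Since peaks show enrichment and not expression, a gene that is not transcribed and a transcribed gene that is not enriched both appear without a peak.

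Of the 8 genes, 6 were overlapped by at least 1 peak, against 22.5% of all protein-coding genes in the reference. Sycp1, Syce2, Tex12, Tex11, Tex14 and Tex15 held 17 peaks between them, and Syce1 and Syce3 held none. The share of genes with a peak grew with gene length, from 12.3% of protein-coding genes with a reference body under 25 kb to 42.3% of longer ones. Of the 4 genes under 25 kb, Syce2 and Tex12 had a peak, and of the 4 longer genes, Sycp1, Tex11, Tex14 and Tex15 all had 1. The median fold of the 17 peaks was 4.15, against 3.59 over all 28332 peaks, their median pileup was 27, against 24, and their median -log10 q was 3.82, against 4.23.

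Some of these peaks could be read for another gene. Of the 17, 8 lay in the body of another protein-coding gene, all of them peaks of Tex12 or Syce2. By gene bodies of the reference, 6 of the 8 genes again held a peak, against 24.1% of protein-coding genes. From peaks in no other protein-coding gene body, Sycp1, Tex11, Tex14 and Tex15 held 1, 4 of the 8 against 22.9%. These are the 4 genes of 25 kb or more, a class of which 42.3% held a peak, counting peaks shared with other genes. From peaks that the authors' deposited table paired with exactly 1 gene, Sycp1, Tex12 and Tex15 held 1, 3 of the 8 against 9.35%. This rule does not clear Tex12, whose peaks all lie in the reference body of Il18, a gene with no row in that table.

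**Figure D1:**
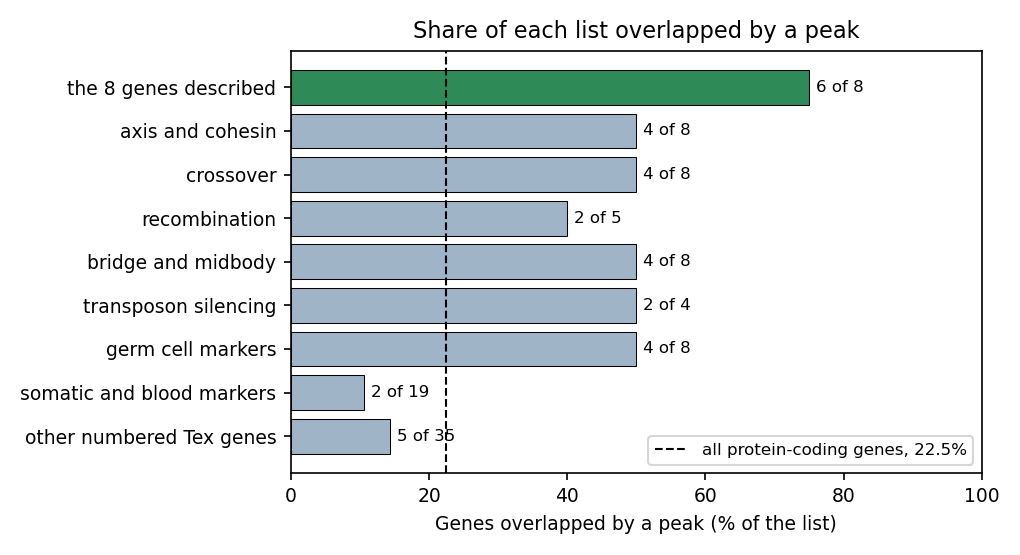
Share of each gene list that a peak overlapped in the authors' deposited table, in percent of the list's genes, with the counts beside each bar. The dashed line is the 22.5% of all protein-coding genes. The 8 genes described stand at 6 of 8, the germ cell markers at 4 of 8 and the markers of somatic and blood cells at 2 of 19.

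Marker genes of cell types were counted in the same way. Of 8 germ cell markers, 4 were overlapped by a peak (Ddx4, Dazl, Kit and Sycp3), against 22.5% of protein-coding genes. Figla, Sohlh1, Nobox and Gdf9 were not. Of 19 markers of granulosa, stromal, endothelial, erythroid and immune cells, 2 were overlapped (Fshr and Tek). No marker of stromal, erythroid or immune cells was overlapped. Peaks show enrichment and not expression, so these counts do not check the tissue label.

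Tex12 encodes a small central element protein that pairs with SYCE2. It had the densest and best supported peaks of the 8 genes. The gene (ENSMUSG00000032065, chr9:50557148-50561268, mm10, minus strand) is 4.12 kb long and was overlapped by 4 peaks, or 9.71 peaks per 10 kb. The median of the 4920 protein-coding genes with a peak was 0.615 per 10 kb, and 98.2% of them had a lower density than Tex12. Each of these genes holds at least 1 peak, so a short body alone raises the density, and length was not matched in this rank. By number of peaks, the median of these genes was 3, and 60.5% of them had fewer than the 4 of Tex12. Of all protein-coding genes under 25 kb, 3.8% had 4 or more.

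The peak nearest the annotated start of Tex12 is shown with the sequence it covers, because it is the only peak of these 17 that falls in a promoter window of the reference sequence table (RefSeq, GRCm38.p6, the same assembly as mm10). The stretch below is chr9:50561239-50561298 on the minus strand, 5′ to 3′, with the last 30 bases before the annotated start and the first 30 from it on. Capitals mark the transcribed bases that lie within the peak.
Tex12 start: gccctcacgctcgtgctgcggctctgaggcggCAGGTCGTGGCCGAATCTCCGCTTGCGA
The summit lies at base 16 of the annotated transcript, and the peak begins at base 3. Of the 48 peak bases inside the window, 33 are G or C (68.8%) and 8 are T. Motifs of ELAVL proteins are rich in U and A, so TTTNTTT and ATTTA were searched on both strands. Neither was in these 48 bases nor in the whole window of 300 bases. Most of that window lies before the annotated start and so outside the annotated transcript. Over 32851 promoter windows the same 48 positions held TTTNTTT in 4.13% and ATTTA in 4.37%, and the 300 bases held them in 31.5% and 34.1%. No sequence of the other peaks was used here.

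This start-site peak (chr9:50561213-50561266) had 34 RIP tags against an input level of 7.08, a fold of 4.33 (3.04 to 6.01) and a -log10 q of 8.86. The next, 2.02 kb into the gene, had 31 tags against 4.95, the largest fold inside Tex12 at 5.37 (3.71 to 7.56), and a -log10 q of 10.6. Another, 2.81 kb into the gene, had 30 tags against 6.37 and a fold of 4.21. These 3 peaks thus held a similar number of RIP tags at the start and in the middle of the gene.

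The fourth lay across the annotated 3′ end (chr9:50557041-50557451) and was the longest, at 411 bp. It had 56 RIP tags against an input level of 12.7, a fold of 4.15 (3.15 to 5.37) and a -log10 q of 13.7, the largest of the 17 peaks and higher than 98.8% of all peaks. Its fold is not the largest of the 4, since it also had the highest input level.

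A further 7 peaks lay just outside Tex12, so that 11 peaks stood within 10.8 kb. On the 3′ side 4 peaks with summits 243 to 1058 bp beyond the annotated end were paired by the authors' deposited table with the next gene, Bco2, a carotenoid-cleaving enzyme gene, and not with Tex12. The farthest of them had 18 tags against an input level of 1.17 and a fold of 8.76. On the 5′ side the table paired 3 peaks with Tex12 as upstream. They had 11, 20 and 23 RIP tags, folds of 3.84, 6.72 and 11.3, and summits 5106, 5390 and 5663 bp before the Tex12 start. The outermost of these had the largest fold (7.31 to 16.7) and -log10 q (17.0) of any peak paired with the 8 genes. Of the 7 peaks outside, 4 had a fold above 5.37, the largest inside the gene, but pileups were lower, at 11 to 23 tags outside against 30 to 56 inside.

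The gene of origin is not settled at this locus. In the reference, Il18, the gene of the cytokine interleukin 18, runs on the opposite strand from 50554700 to 50581841 on chromosome 9 and holds all 11 peaks and the whole of Tex12. Il18 had no row in the authors' deposited table. The peaks carry no strand, so Tex12 and Il18 RNA cannot be told apart.

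**Figure D2:**
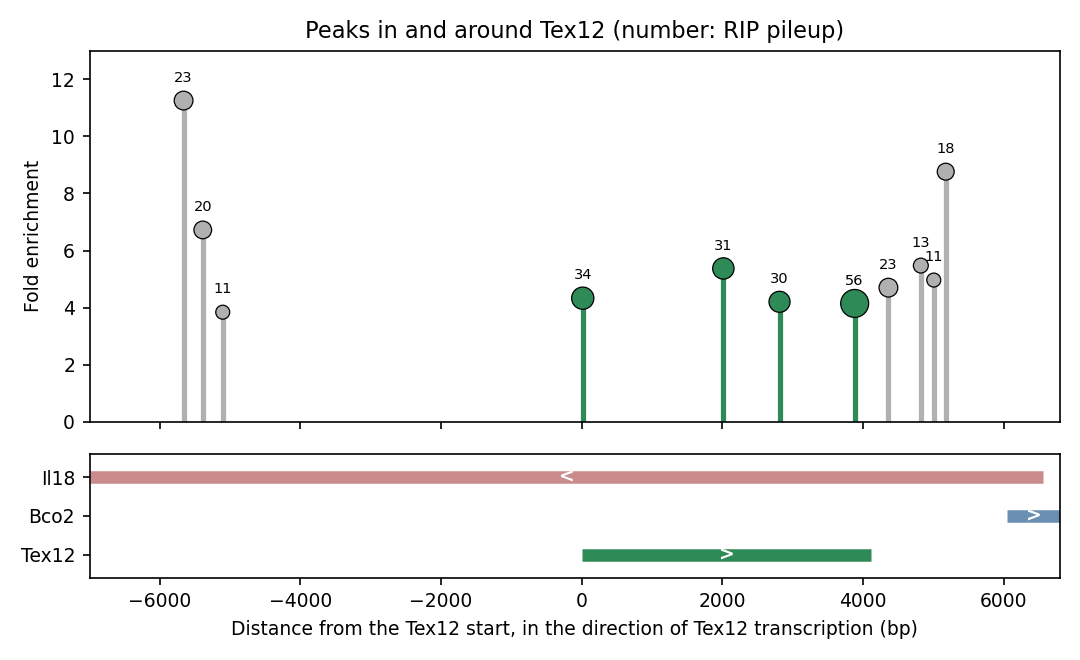
Fold enrichment of the 11 peaks in and around Tex12 (upper panel) by distance of the summit from the Tex12 start in bp, positive in the direction of transcription, with point size and number giving the RIP pileup in tags. Green peaks overlap Tex12 and grey peaks lie outside it. The lower panel shows the reference bodies of Tex12, Bco2 and Il18, with arrowheads for their direction. Il18 spans all 11 peaks.

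Syce2 encodes the central element partner of TEX12. It was overlapped by as many peaks as Tex12, 4, which 8.88% of protein-coding genes reached or passed, as did 3.8% of those under 25 kb. All 4 lay within 931 bp at its 3′ end. With peaks within 500 bp of each other merged, Syce2 had 1 peak, while Tex12 still had 4. The shares of genes given here count peaks without merging. The gene in the authors' deposited table (ENSMUSG00000003824, chr8:84872111-84888221, plus strand) is 16.1 kb long. From 5′ to 3′ the RIP pileups were 50, 27, 30 and 30 tags, and the input levels 25.5, 9.20, 9.91 and 11.3. The folds were 1.93, 2.74, 2.84 and 2.52, all below the median of 3.59 over all peaks. The -log10 q values were 2.28, 3.14, 3.82 and 2.85. The peak with most RIP tags therefore had the lowest fold, and the best of the 4 had an interval of 1.95 to 4.02.

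Every one of these 4 peaks also lay inside Gcdh, the gene of glutaryl-CoA dehydrogenase, which ends on the opposite strand so that the gene bodies overlap tail to tail. In the reference, Syce2 ends 775 bp earlier than in the authors' deposited table, and only 1 of the 4 peaks, that with a fold of 1.93, lies in the shorter body. No peak of Syce2 was free of Gcdh, and Gcdh had no other overlapping peak. Strand was not in the peak list, so RNA of the pair cannot be told apart.

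**Figure D3:**
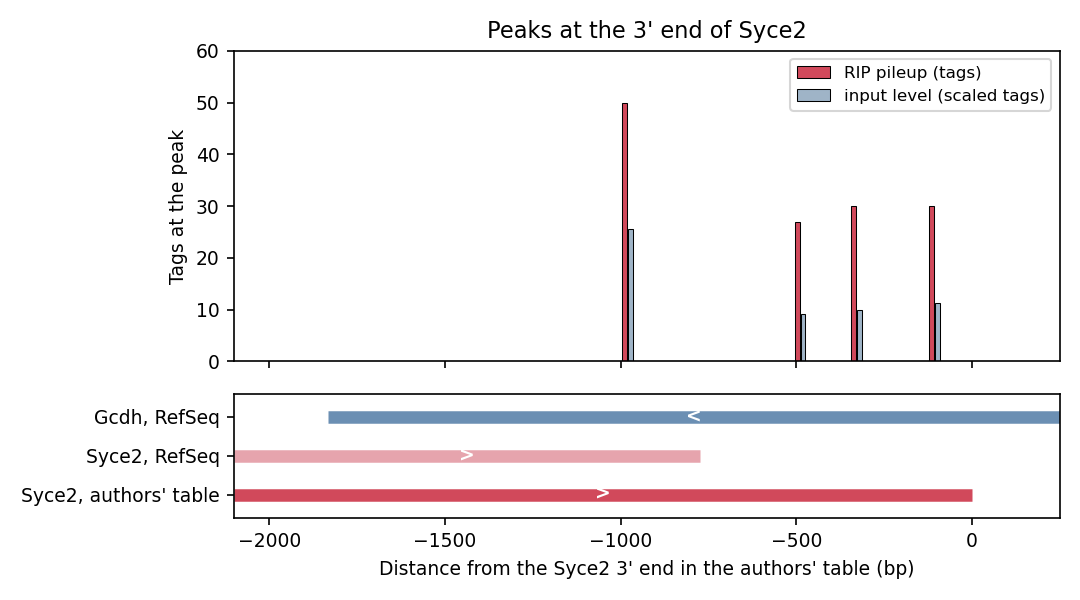
RIP pileup (red bars, tags) and input level (grey bars, scaled tags) at the 4 peaks of the Syce2 3′ end, by distance in bp from the end given in the authors' deposited table. Below are the Syce2 bodies of that table and of RefSeq, and the Gcdh body. Only the peak with 50 tags lies in the RefSeq body of Syce2, and all 4 lie in Gcdh.

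Syce1 and Syce3 encode the central element proteins that link SYCP1 to the centre. Neither had a row in the authors' deposited table. The nearest peak to the reference body of Syce1 (chr7:140777229-140787854) was 435.9 kb away, and that to Syce3 (chr15:89390174-89410503) 103.3 kb away. The lowest pileup called in the list was 4 tags where the input was at the genome-wide background level of 0.369, and 5 tags where it was at 1 input tag. A pile of fewer tags over such genes was not detectable at this depth.

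Sycp1 encodes the transverse filament (ENSMUSG00000027855, chr3:102818499-102936100, minus strand, 117.6 kb). It had 3 peaks of unlike kind, and 11.6% of protein-coding genes had 3 or more. The peak 3.41 kb from its start (chr3:102932650-102932731) had 22 RIP tags against an input level of 5.66, a fold of 3.45 (2.22 to 5.15) and a -log10 q of 4.02. The peak 7.48 kb from the start had only 8 tags against 0.708, a fold of 5.27 (2.61 to 9.82) and a -log10 q of 3.82. The peak deep in the gene, 81.9 kb from the start, had 47 tags against an input level of 26.2, a fold of 1.77 (1.31 to 2.34) and a -log10 q of 1.36, and only 1.85% of all peaks had a lower one.

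Sycp1 thus had its most RIP tags where enrichment was lowest. All 3 peaks lay in no other protein-coding gene. Sycp1 and Tex12, 2 of the 8 genes, had a summit in the first 10% of the gene, which 2.58% of protein-coding genes had. Syce2 and Tex12 had 1 in the last 10%, against 14.8%.

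Tex11 (ENSMUSG00000009670, chrX:100838648-101059667, minus strand, 221 kb) is the longest of the 8 genes. Its 3 peaks lay within 2137 bp, at 82 to 83% of the gene's length. They had 6, 8 and 8 RIP tags. For the first, at chrX:100876026-100876112, the input level was 0.369, the background over the whole genome, and for the others it was 1 input tag. The folds were 5.11 (2.34 to 10.3), 5.27 and 5.27 (2.61 to 9.82), and the -log10 q values 3.57, 3.82 and 3.82. These are few tags: only 1.87% of all peaks had fewer than 6, and 8.94% had fewer than 8. With the pileup held to at least 20 tags, Tex11 had no peak.

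Tex14 (ENSMUSG00000010342, chr11:87405065-87555823, plus strand, 150.8 kb) had 1 peak, 124 kb from its start at chr11:87529035-87529125. It had 12 RIP tags against 1 input tag (0.708). Its fold of 7.61 (4.22 to 12.9) was the largest inside any of the 8 genes, and its -log10 q was 7.84. The peak overlapped no other gene. At a pileup of at least 20 tags Tex14 too had no peak, and then 4 of the 8 genes kept 1, against 16.4% of protein-coding genes. At a fold of at least 3, 5 of the 8 did, against 17.3%.

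Tex15 (ENSMUSG00000009628, chr8:33516738-33585582, plus strand, 68.8 kb) had 2 peaks with summits 231 bp apart, 40.7 and 40.9 kb from its start. Both had 20 RIP tags, against input levels of 6.37 and 5.66. The folds were 2.85 (1.79 to 4.33) and 3.15 (1.98 to 4.79), with -log10 q values of 2.45 and 3.05. 1 more peak was paired with Tex15 although it lay 31139 bp upstream, with 16 tags against 2.12 and a fold of 5.44. Inside the gene Tex15 was thus the least supported of the 6 genes by its best -log10 q.

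**Figure D4:**
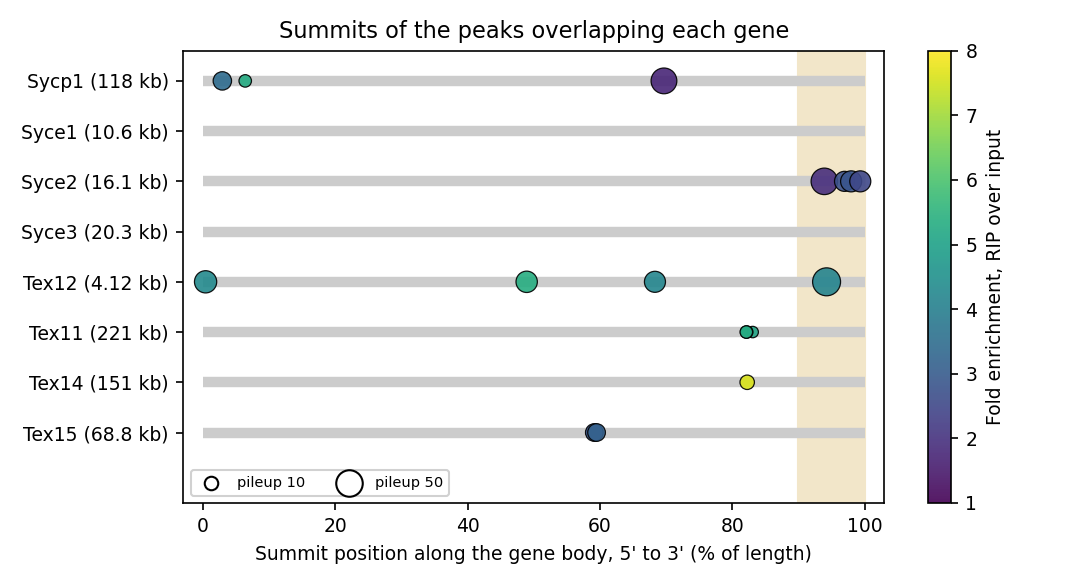
Summits of the 17 peaks along each gene body, from the 5′ end (0%) to the 3′ end (100%), with point size for the RIP pileup in tags and colour for the fold enrichment. The shaded band is the last 10%. Syce2 has its 4 summits in the band, Tex12 has summits from its start to its 3′ end, Tex11 and Tex14 have theirs near 82%, and Syce1 and Syce3 have none.

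Positions along the genes differed among members. In the last 10% of the gene body lay 5 of 17 summits (29.4%, exact Clopper-Pearson 95% interval 10.3 to 56.0), 4 of Syce2 and 1 of Tex12. Over all 23221 pairs of a peak and a gene it overlapped, the share was 45.1%. In the last 20% lay 9 of 17 (52.9%), against 55.6%. Each Syce2 peak overlapped 2 genes of the authors' deposited table. Among peaks that overlapped exactly 1 gene of that table, the last 10% held 1 of 13 (7.69%), that of Tex12, against 46.6% of 19371. Il18, which has no row there, also holds the Tex12 peaks in the reference. In the first 10% lay 3 of 17 (17.6%, interval 3.80 to 43.4), 2 of Sycp1 and 1 of Tex12, against 5.15% of all pairs. Peaks of 1 gene are not independent, and exons were not used here, so these shares are a description along bodies with introns.

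A low input level allows a high fold from few tags, so folds are best compared where the input is alike. Each peak was therefore ranked among all peaks with an input level within 1.2 times of its own. The 4 Tex12 peaks then stood above 99.2% (3′ end), 79.3%, 94.6% and 89.5% (start) of 2356 to 3807 such peaks. The 3′ end peak of Tex12 had a fold of 4.15, where the median at its input level was 2.69. Tex14 stood above 84.3% of its peers, whose median fold was 5.62.

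The other 12 peaks were all below the median at their level. Tex11 stood above 19.1% to 32.3% of peers, Syce2 above 26.8% to 39.9%, Sycp1 above 3.77% to 38.8% and Tex15 above 11.8% and 22.1%. The fold of 5.27 in Tex11 and Sycp1, above the median of all peaks, was thus below the median of 5.62 for peaks at 1 input tag. Outside the genes, the outermost peak upstream of Tex12 stood above 98.2% of its 457 peers. All of these ranks are among called peaks only.

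**Figure D5:**
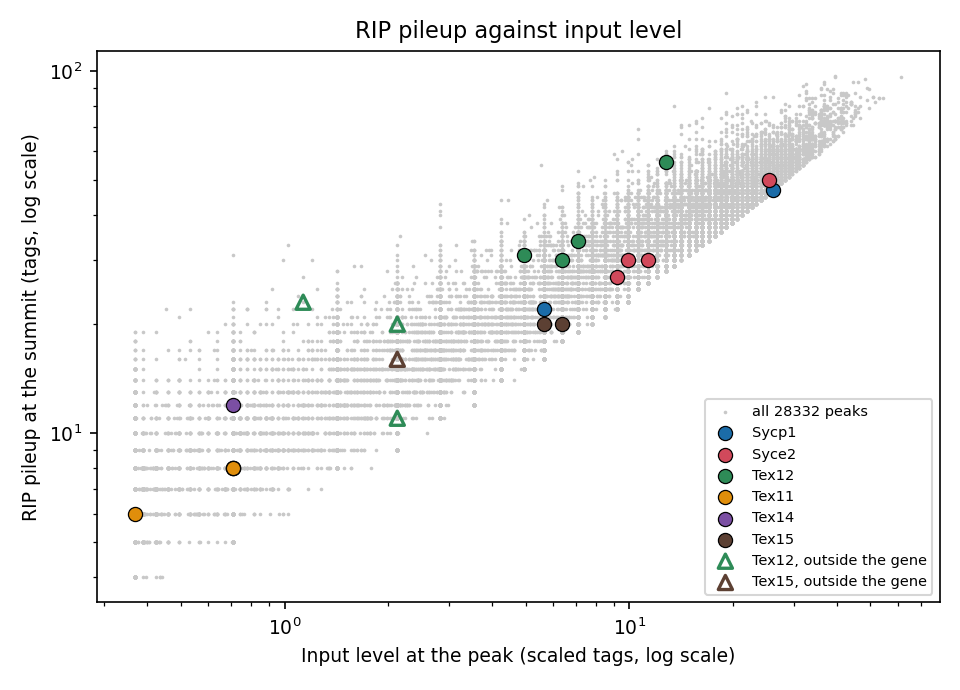
RIP pileup (tags, log scale) against input level (scaled tags, log scale) for all 28332 peaks (grey) and the peaks of the 6 genes (filled points), with peaks outside Tex12 and Tex15 as open triangles. Tex12 lies along the upper part of the cloud, while Sycp1, Syce2 and Tex15 lie in its lower part. A peak of Sycp1 lies hidden under Tex11 at 8 tags.

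Partner genes of the same processes were counted from fixed lists of 34 genes, of which 17 were overlapped by a peak (50%, against 22.5% of protein-coding genes). Gene length was not matched between the lists and this background, and older gene symbols were sought only for the lists. Six6os1, the remaining central element gene, had 8 peaks and a best fold of 6.85 with 25 RIP tags against an input level of 2.80. With it, 3 of the 5 central element genes had a peak, but every peak of Syce2 and Tex12 also lay in the body of another gene. Of 8 genes of the chromosome axis and cohesin, 4 were overlapped. The best folds were 9.95 in Hormad1, 8.04 in Hormad2 and 4.68 in Smc1b, a meiotic cohesin subunit. The Hormad2 peak rested on 10 RIP tags at the background input level of 0.369. The Smc1b peak rested on 7 RIP tags and lay in the bodies of 2 protein-coding genes in the reference.

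Of 8 crossover genes, 4 were overlapped, led by Shoc1 (best fold 9.95), the helicase gene Hfm1 (7.61) and Msh4 (3.86). The Hfm1 peak rested on 12 RIP tags at 1 input tag. Of 5 recombination genes 2 were overlapped, namely the break-forming Spo11 (7.31) and Spata22 (4.63). The Spo11 peak rested on 9 RIP tags at the background input level of 0.369. Among all peaks of alike input, the median fold was 5.85 at that level and 5.62 at 1 input tag. Of 8 bridge and midbody genes 4 were, with the largest best folds in Cep55 (6.33), the midbody scaffold that TEX14 binds, Tsg101 (3.10) and Pdcd6ip (3.04). Of 4 genes of transposon silencing, Piwil4 (8.69) and Mael (2.84) were. No partner list of 4 or more genes stood above 50%, and the 3 of the largest folds, Hormad1, Shoc1 and Piwil4, rested on 16, 16 and 20 RIP tags. The best peak of Piwil4 overlapped 2 genes.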

How the data were processed

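RNA of 1 ELAVL2 RIP and 1 input sample was measured. The submitters' processing notes name MACS2 (2.1.0.20140616), TopHat2 (2.0.8b), CASAVA (1.8.2), FastQC (0.11.2) and mm10. Peaks were called by the authors on 3 pooled lanes per sample, per the file headers, at a q cutoff of 0.05, with tags extended to 50 bp, 1 tag per position and strand (7.98% of RIP and 9.26% of input tags kept) and the input scaled by 0.708. The deposited pileup is a signal, the deposited fold enrichment a ratio with a pseudocount of 1, and the deposited -log10 p and -log10 q (p-value and q-value) are the peak caller's. The caller was built for DNA and ignores strand and splicing.

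The tool that paired peaks with Ensembl genes in the authors' deposited table is not stated. Of its 85730 rows, 42176 exact repeats were dropped. Rows marked upstream or downstream were kept apart. The input level was computed as the pileup plus 1 over the fold, minus 1. It came out as whole input tags (within 0.01) for 19 of the 21 peaks, and the Poisson -log10 p recomputed from it over all peaks lay within 5.62e-05 of the deposited value. Gene bodies, strands and promoter windows came from RefSeq (GRCm38.p6), which held all 8 genes. The background is the 21896 protein-coding genes of that table, matched by symbol. A gene under an older symbol in the authors' deposited table therefore counts in the 22.5% as without a peak. By reference gene bodies, which need no symbol, the share was 24.1%. Overlap counting was tested on simulated data. Python 3.11.15, numpy 2.4.6, pandas 2.3.3 and scipy 1.17.1 were used.

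The genes described and the lists were chosen with earlier results of these data known. All 8 genes are named, and of each further list the 3 with the largest fold inside the gene. Lists were counted over all members, except for 1 gene that is not reported here. No test was made, since each arm has 1 sample. Alternatives were thresholds on q, fold and pileup, merging of neighbouring peaks, other rules for pairing peaks with genes, the reference gene bodies, a fold without the pseudocount and the last 20% of the gene body in place of the last 10%.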

Additional observations from a re-analysis of the deposited data

How the results depend on the processing

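The 17 peaks and 6 genes fell to 7 peaks and 3 genes (Sycp1, Tex12 and Tex15) when only peaks paired with exactly 1 gene were kept, a rule that 9.35% of protein-coding genes met. At a fold of at least 3 there were 11 peaks, and Syce2 had none. In an alternative chosen after seeing the data, only peaks in the gene's own reference body and in no other protein-coding gene were kept, which left 9 peaks and dropped Syce2 and Tex12. The median over the 6 genes of the best fold was 5.27. It was 3.30 at a pileup of at least 20, which leaves out Tex11 and Tex14. That threshold also lowered the best fold of Sycp1 from 5.27 to 3.45. Without the pseudocount, which raises folds at low input levels most, the median was 8.78. The other 21 of 27 recomputed summary values stayed within 1.5 times of the count, the spread of best folds between genes, or the interval of the share. Among these was the share of the 17 summits near the 3′ end, 29.4% in the last 10% of the gene and 52.9% in the last 20%. The wider window contains the narrower, so this share could not fall, and its wide interval makes the comparison weak. Over all pairs of a peak and a gene the shares were 45.1% and 55.6%. The members thus stood below all pairs in the last 10% and close to them in the last 20%. Of 110 recomputed values for single genes, 21 moved further. The planned share of peak sequences with a U-rich motif was not run, since no genome sequence was used here. Depth limits Tex11 and Tex14, whose peaks rest on 6 to 12 RIP tags, and the best fold of Sycp1, which rests on 8. No paired analysis was possible because each group held 1 sample.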

Other observations

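Other genes with a numbered Tex symbol, named for expression in testis, were counted the same way. Of 35 in the reference, 5 were overlapped by a peak (14.3%, against 22.5% of protein-coding genes), and 11 were paired with 1, overlapping or not. Tex13b, an X-linked gene listed under its older symbol Tex13, had 8 peaks in it and a best fold of 4.85 with 21 RIP tags against an input level of 3.54. Tex16 had 1 peak with a fold of 4.68 and 7 tags. Tex2 had 8 peaks with a best fold of 3.65, Tex30 had 5 with 2.93, and Tex19.1 had 1 with 2.37 at 40 tags.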
